A study of Mus musculus with 12 samples.

Results

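The expression of 10 genes of glutathione metabolism and antioxidant defence was followed across the kidneys of mice with a mutation in Gne: Gclc, Gclm, Gss, Ggt1, Gsr, Gpx1, Gpx3, Gpx4, Hmox1 and Nqo1. They were taken as the rows of the deposited count table that carry these 10 symbols, 1 row per gene, out of 39171 genes in all. RNA was sequenced from whole kidneys of 12 male mice no older than 3 months, with 1 library per mouse. Sick and healthy knock-in mice (4 each) shared 1 genotype, GNE M743T/M743T, a methionine-to-threonine change on both copies of the gene for the enzyme that opens sialic acid synthesis, and differed in the state that the submitters recorded. The third group was 4 wild-type mice. The sources used here give neither the strain nor what defined a mouse as sick or healthy.

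Glutathione is a small thiol peptide built inside cells in consecutive steps, by glutamate-cysteine ligase (a catalytic subunit from Gclc and a modifier subunit from Gclm) and then by glutathione synthetase (Gss). Glutathione peroxidases spend it to reduce peroxides, glutathione reductase (Gsr) returns the oxidised form at the expense of NADPH, and gamma-glutamyltransferase (Ggt1) opens the breakdown of glutathione outside the cell. In the kidney the proximal tubule carries a dense coat of gamma-glutamyltransferase on its brush border and makes the secreted plasma peroxidase encoded by Gpx3. Hmox1 (heme oxygenase, which degrades heme) and Nqo1 (a quinone reductase) are inducible genes widely used to read the activity of the transcription factor NRF2, which also drives Gclc, Gclm and Gsr.

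All 10 genes had enough counts to be tested, among 15589 genes. Against wild-type mice, 8 of the 10 were lower in sick kidneys, 1 was higher (Nqo1) and 1 did not pass the test (Hmox1), by the quasi-likelihood test of edgeR with a Benjamini-Hochberg adjusted p under 0.05. Of all genes tested, 25.0% were lower, 25.9% were higher and 50.9% were called in either direction in the same comparison. Against healthy knock-in mice, 7 of the 10 were lower, Nqo1 was higher, and Gpx4 and Hmox1 did not pass, where 21.9% of all genes were lower, 24.5% were higher and 46.4% were called in either direction. Between healthy knock-in and wild-type mice none of the 10 passed in edgeR or in DESeq2, none reached an unadjusted p of 0.05 in edgeR (4.49% of all genes did), and 0.314% of all genes were called. The median log2 fold change of the 10 genes was -1.14 in sick against wild-type mice, beside 0.02 over all genes tested. It was -1.09 in sick against healthy knock-in mice, beside 0.05 over all genes, and -0.07 in healthy knock-in against wild-type mice, beside -0.01. With library totals in place of the scaling described next, 5 of the 10 passed in each comparison of sick mice. Of all 15589 genes tested, 10025 passed against wild-type and 10006 against healthy knock-in mice in that setting. The sign then turned for Gsr against wild-type and for Gpx4 against healthy knock-in mice. Both comparisons of sick mice use the same 4 sick libraries, so they are not independent of each other.

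Total counts were 10605546 to 22633684 in sick knock-in, 18191087 to 21925419 in healthy knock-in and 13189478 to 19493856 in wild-type libraries. Levels are in CPM, that is, counts set to a common library size after TMM normalisation, whose factors were 1.23 to 1.39 in sick libraries, 0.804 to 0.933 in healthy and 0.839 to 0.901 in wild-type libraries. Without that scaling the median log2 fold change of all genes moved to 0.61 in sick against wild-type mice and to 0.63 in sick against healthy knock-in mice, and 84.0% and 85.8% of the called genes were then higher, in place of 50.8% and 52.7%. Changes are therefore relative to the typical gene. The leading principal component, with 60.9% of the variance, set the sick libraries (-116 to -74.1) apart from the other 8 (32.3 to 61.8). Wild-type mouse 2 stood apart on the next component, at -84.7 where the other wild-type mice lay at 1.34 to 18.3, and sick mouse 3 lay at -38.9, so results that rest on either are also given without it. Nothing in the labels names a batch.

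The 3 peroxidase genes encode selenoproteins, in which a UGA codon, elsewhere a stop, is read as selenocysteine at the catalytic site. The coding sequences around that codon are shown because the codon is what the 3 share and what ties them to selenium supply, described further on; the codon is in capitals, with 21 bases on each side (GRCm38, plus strand).
Gpx1, codon at chr9:108339451-108339453: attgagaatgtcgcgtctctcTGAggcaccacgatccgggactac
Gpx3, codon at chr11:54907256-54907258: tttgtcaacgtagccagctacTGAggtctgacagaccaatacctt
Gpx4, codon at chr10:80054737-80054739: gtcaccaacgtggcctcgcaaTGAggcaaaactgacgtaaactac
In all 3 the codon after it begins with GG.

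Promoter windows from RefSeq (GRCm38.p6; 250 bases before to 50 after an annotated start) were found for 7 of the 10 genes, all but Gclc, Gsr and Hmox1. They were searched on both strands for TGACNNNGC, the core letters of the antioxidant response element that NRF2 binds with a small Maf protein. The letters stood in the window of Gclm and in 3 of the 4 windows of Ggt1, and in none of the windows of Gss, Nqo1, Gpx1, Gpx3 or Gpx4. Over all mouse genes, 4071 of 32851 such windows (12.4%) held them. By gene, 2 of the 7 held them in a window, where 3781 of 27025 mouse genes (14.0%) did. A match of each of the 2 genes is shown. They stand at opposite ends of the pathway, Gclm at synthesis and Ggt1 at breakdown. The match is in capitals and, for Gclm, is read on the minus strand.
Gclm, chr3:122245398-122245457, match at -134 from the start: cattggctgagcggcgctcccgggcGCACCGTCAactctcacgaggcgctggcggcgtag
Ggt1, chr10:75571452-75571511, match at -83 from the start: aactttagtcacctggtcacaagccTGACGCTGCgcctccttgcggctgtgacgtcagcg
A match is a description of letters and not a bound site, and a window without one says nothing of the factor at that gene.

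All 3 genes of glutathione synthesis fell in sick kidneys, though Gclc did not pass with library totals alone. Gclc (chr9:77754535-77794485, plus strand), the catalytic subunit of the rate-limiting ligase, had 93.0, 189, 126 and 155 CPM in the 4 sick mice, 185, 344, 493 and 259 CPM in the healthy knock-in mice and 236, 334, 221 and 390.5 CPM in the wild-type mice. Every sick mouse lay below every wild-type mouse, while sick mouse 2 lay just above the lowest healthy mouse. Gclc was 2.10-fold lower in sick than in wild-type mice (log2 fold change -1.07 ± 0.31 SE, adjusted p = 0.0108) and 2.28-fold lower than in healthy knock-in mice (-1.19 ± 0.31, adjusted p = 0.00691). With library totals alone neither Gclc difference passed, at -0.47 (adjusted p = 0.190) against wild-type and -0.62 (adjusted p = 0.0931) against healthy knock-in mice. The 4 healthy mice spanned more than the 4 mice of either other group, with an SD of 132 CPM beside 41.0 CPM in sick mice, against 80.7 CPM in wild-type mice.

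Gclm (chr3:122245557-122270732, plus strand), the modifier subunit that raises the ligase's affinity for glutamate, was the steadiest of the synthesis genes. Its level was 145, 154, 185 and 203 CPM in sick mice, 403, 340.3, 388 and 384 CPM in healthy knock-in mice and 369, 379.8, 383 and 468 CPM in wild-type mice. The sick group overlapped neither of the others. Gclm was 2.33-fold lower in sick than in wild-type mice (-1.22 ± 0.14, adjusted p = 2.51e-05) and 2.21-fold lower than in healthy knock-in mice (-1.14 ± 0.14, adjusted p = 5.11e-05).

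Gss (chr2:155563181-155592810, minus strand), which adds glycine to finish the peptide, fell most of the 3. It had 70.3, 109.6, 205 and 96.9 CPM in sick mice, 296, 380.4, 347 and 339 CPM in healthy knock-in mice and 368, 695, 349 and 362 CPM in wild-type mice. No sick mouse reached the lowest mouse of another group, and wild-type mouse 2 stood far above the other 3. Gss was 3.68-fold lower in sick than in wild-type mice (-1.88 ± 0.32, adjusted p = 0.000347) and 2.83-fold lower than in healthy knock-in mice (-1.50 ± 0.31, adjusted p = 0.00180). The log2 fold change against wild-type mice was -1.59 when wild-type mouse 2 was left out, and without sick mouse 3 it was -2.27. Exons of Gss overlap 395 bases of exons of Acss2, an acetyl-CoA synthetase gene on the other strand, which averaged 76.5 CPM in sick mice, against 401 CPM in wild-type mice. The sources used here do not say whether counting used strand, so part of the Gss reads may belong to Acss2.

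Ggt1 (chr10:75561604-75586200, plus strand) showed the largest fall of the 10 genes in both comparisons of sick mice. It had 169, 276, 415 and 321 CPM in sick mice, 1655, 1484, 1593 and 1922 CPM in healthy knock-in mice and 1459, 2487, 1371 and 1665 CPM in wild-type mice. The highest sick mouse lay far below the lowest mouse of the other groups. Ggt1 was 5.92-fold lower in sick than in wild-type mice (-2.56 ± 0.28, adjusted p = 1.56e-05) and 5.64-fold lower than in healthy knock-in mice (-2.50 ± 0.28, adjusted p = 2.42e-05). Sick and wild-type groups keep their order without wild-type mouse 2, where Ggt1 averaged 295 ± 102 CPM in sick mice (n = 4) and 1498 ± 151 CPM in wild-type mice (n = 3).

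Gsr (chr8:33652523-33698163, plus strand), which reduces glutathione disulfide with NADPH, showed a small and even difference. It had 99.4, 114, 142 and 123 CPM in sick mice, 172, 187, 176 and 183 CPM in healthy knock-in mice and 162, 203, 159 and 174 CPM in wild-type mice. The sick group lay below both others without overlap. Gsr was 1.46-fold lower in sick than in wild-type mice (-0.54 ± 0.13, adjusted p = 0.00372) and 1.50-fold lower than in healthy knock-in mice (-0.59 ± 0.13, adjusted p = 0.00267). Its fall depends on the scaling: with library totals alone the log2 fold change was 0.04 against wild-type (adjusted p = 0.778) and -0.01 against healthy knock-in mice (adjusted p = 0.953). As a share of all counts Gsr took 0.0138% to 0.0174% in sick libraries, 0.0147% to 0.0174% in healthy and 0.0139% to 0.0176% in wild-type libraries.

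**Figure D1:**
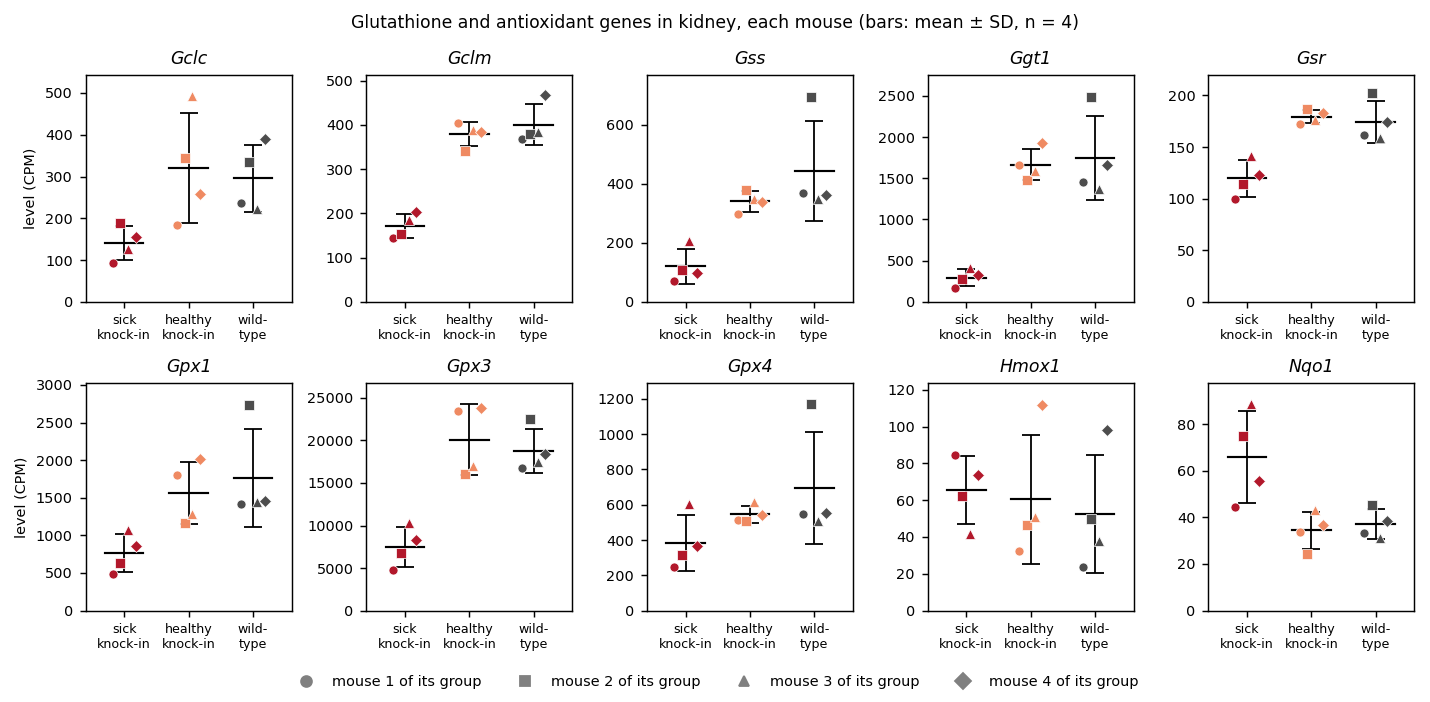
Levels in CPM (vertical axes, linear and starting at 0) of the 10 genes in each of 12 kidneys; each marker is a mouse, the marker shape is its number within its group, and the bars are the mean ± SD (n = 4). Ggt1 in sick mice sits at 169 to 415 CPM and at 1371 to 2487 CPM in every other mouse, and Hmox1 overlaps in all groups. Nqo1 has its highest mean in sick mice, with sick mouse 1 just under wild-type mouse 2.

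The peroxidases fell too, in unequal degree. Gpx1 (chr9:108338903-108340343, plus strand), the cytosolic peroxidase that removes hydrogen peroxide, had 490.0, 638, 1069 and 853 CPM in sick mice, 1797, 1160.5, 1288 and 2020.3 CPM in healthy knock-in mice and 1423, 2739, 1439 and 1461 CPM in wild-type mice. The sick mice lay below all others, sick mouse 3 by the narrowest margin. Gpx1 was 2.32-fold lower in sick than in wild-type mice (-1.21 ± 0.30, adjusted p = 0.00484) and 2.05-fold lower than in healthy knock-in mice (-1.04 ± 0.30, adjusted p = 0.0129). With library totals alone neither difference passed, at -0.64 (adjusted p = 0.0515) and -0.45 (adjusted p = 0.151). Wild-type mouse 2 stood far above the other wild-type mice. Without it the log2 fold change of Gpx1 against wild-type mice was -0.93 (adjusted p = 0.0121).

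Gpx3 (chr11:54902453-54910377, plus strand), the secreted peroxidase of plasma, was the most abundant of the 10 genes in every mouse. It had 4719.9, 6799, 10254 and 8266 CPM in sick mice, 23476, 16073, 16943 and 23839 CPM in healthy knock-in mice and 16717, 22526, 17461 and 18422 CPM in wild-type mice. The sick group lay below both others without overlap. Gpx3 was 2.50-fold lower in sick than in wild-type mice (-1.32 ± 0.30, adjusted p = 0.00243) and 2.67-fold lower than in healthy knock-in mice (-1.42 ± 0.30, adjusted p = 0.00181). This gene alone took 0.654% to 1.26% of all counts in sick libraries, 1.50% to 2.03% in healthy and 1.50% to 1.96% in wild-type libraries.

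Gpx4 (chr10:80047166-80056439, plus strand), which reduces lipid hydroperoxides inside membranes, differed least of the peroxidases. It had 247, 313, 607 and 365 CPM in sick mice, 516, 509, 615 and 543 CPM in healthy knock-in mice and 549, 1169, 509.8 and 552 CPM in wild-type mice. Sick mouse 3 lay among the other groups, and the other 3 sick mice lay below them all. Gpx4 was 1.81-fold lower in sick than in wild-type mice (-0.86 ± 0.31, adjusted p = 0.0323), and it did not pass against healthy knock-in mice (-0.51 ± 0.30, adjusted p = 0.188). Each of these calls rests on single mice. Without wild-type mouse 2 the first was -0.50 (adjusted p = 0.109), without sick mouse 1, 2 or 4 it was -0.70, -0.78 and -0.84 (adjusted p = 0.0887, 0.0834 and 0.0685), and without sick mouse 3 the second was -0.83 (adjusted p = 0.0294). With library totals alone Gpx4 was -0.29 against wild-type (adjusted p = 0.391) and 0.05 (adjusted p = 0.880) against healthy knock-in mice.

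The last pair did not move with the others. Nqo1 (chr8:107388225-107403206, minus strand), the quinone reductase, had 44.6, 74.7, 88.7 and 55.8 CPM in sick mice, 33.5, 24.1, 43.3 and 36.6 CPM in healthy knock-in mice and 33.2, 45.3, 31.03 and 38.6 CPM in wild-type mice. All sick mice lay above all healthy mice, and 3 of the 4 lay above all wild-type mice, with sick mouse 1 just under wild-type mouse 2. Nqo1 was 1.78-fold higher in sick than in wild-type mice (0.83 ± 0.23, adjusted p = 0.00850) and 1.92-fold higher than in healthy knock-in mice (0.94 ± 0.23, adjusted p = 0.00467). With library totals alone it was higher by 1.41 and 1.52.

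Hmox1 (chr8:75093621-75100589, plus strand), the inducible heme oxygenase, had 84.6, 62.1, 41.5 and 73.7 CPM in sick mice, 32.6, 46.7, 50.9 and 112 CPM in healthy knock-in mice and 23.9, 49.6, 37.8 and 97.9 CPM in wild-type mice. The 3 groups overlapped throughout, and mouse 4 was the highest mouse in both the healthy and the wild-type group. The difference between sick and wild-type mice was 0.32 ± 0.43 (adjusted p = 0.561) and that between sick and healthy knock-in mice 0.11 ± 0.43 (adjusted p = 0.848). With library totals alone these were 0.95 (adjusted p = 0.0607) and 0.74 (adjusted p = 0.130). Without mouse 4 of the wild-type group the first was 0.81 (adjusted p = 0.115), and without mouse 4 of the healthy group the second was 0.59 (adjusted p = 0.264). Its SE was the largest of the 10 genes, so a change as large as that of Nqo1 lies within about 2 SE of the estimate against either group. Hmox1 is strong in macrophages that take up red cells, and the summed level of 13 macrophage markers was 1909.6, 909, 953 and 1269 CPM in the sick mice, 228, 209.8, 273 and 222 CPM in the healthy knock-in mice and 139, 178.5, 136 and 267 CPM in the wild-type mice. Sick mouse 1 and wild-type mouse 4 were highest in their groups both in Hmox1 and in that sum. Healthy mouse 4, with the highest Hmox1 of all 12 mice, had only the third highest sum of its group, and sick mouse 3, with the lowest Hmox1 of the sick mice, did not have the lowest sum. Red blood cell markers summed to 17.9 to 214 CPM in sick, 82.4 to 327 CPM in healthy and 86.9 to 391 CPM in wild-type mice. Their part in the Hmox1 level was not tested.

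**Figure D2:**
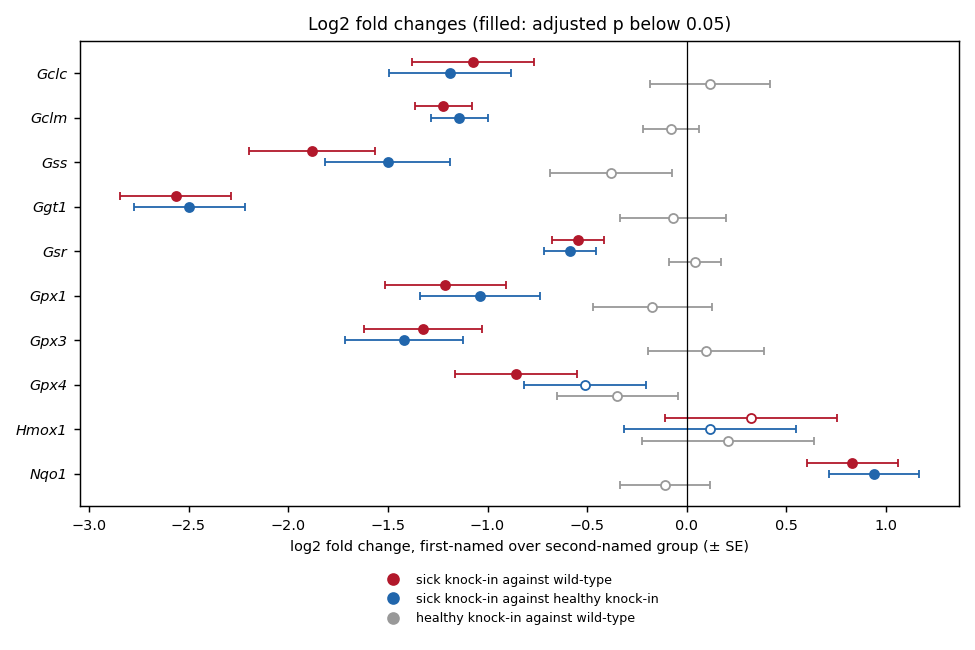
Log2 fold changes (horizontal axis, ± SE) of the 10 genes in 3 comparisons, with filled points where the adjusted p was below 0.05. Points for sick mice lie left of 0 for 8 genes, down to -2.56 for Ggt1 against wild-type, and right of 0 for Nqo1 and Hmox1, and the grey points, which set healthy knock-in mice over wild-type mice, lie between -0.38 and 0.21, all open; with library totals alone Gsr against wild-type and Gpx4 against healthy knock-in mice change sign.

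Without overlap of any mouse, 7 of the 10 genes were lower in sick than in wild-type mice (all those that fell except Gpx4), where 20.6% of all genes tested were. Against healthy knock-in mice 6 were lower without overlap (Ggt1, Gclm, Gss, Gsr, Gpx1 and Gpx3), where 23.2% of all genes were, and Nqo1 was higher without overlap, where 24.0% were. The 5 genes that passed with library totals alone were Ggt1, Gclm, Gss and Gpx3, which were lower, and Nqo1, which was higher, in both comparisons of sick mice. Those same 4 lower genes were the ones called in the authors' deposited table in both comparisons of sick mice, with none called in healthy knock-in against wild-type mice. Of genes with a value in the authors' deposited table, 20.4% were called in sick against wild-type mice, 16.9% in sick against healthy knock-in mice and 0.241% in healthy knock-in against wild-type mice. The authors' deposited table gives Ggt1 a log2 fold change of -2.50 (adjusted p = 8.92e-13), Gclm -1.23 (adjusted p = 2.88e-06), Gss -1.82 (adjusted p = 0.000164) and Gpx3 -1.31 (adjusted p = 0.00363) in sick against wild-type mice. Gclc at -1.05 (adjusted p = 0.257), Gpx1 at -1.18 (adjusted p = 0.0833) and Nqo1 at 0.78 (adjusted p = 0.685) were not called in the authors' deposited table. The statistics in the authors' deposited table equal the excess of the log2 fold change over 0.5 divided by its SE, within 0.01, for all 10890 genes past that size, so a gene had to exceed that minimum and not 0.

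**Figure D3:**
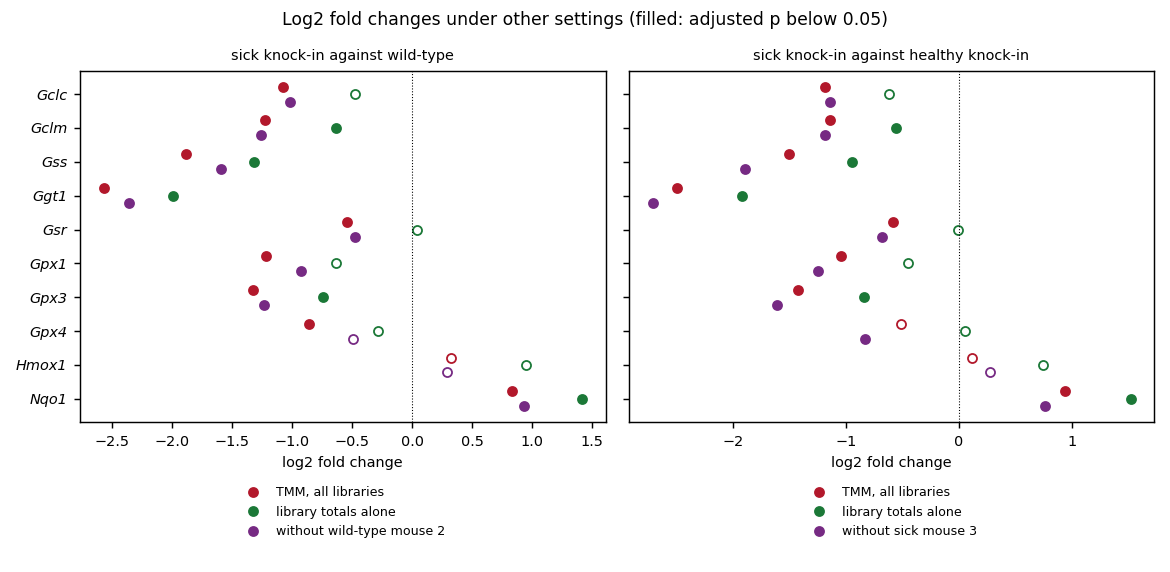
Log2 fold changes (horizontal axis) of the 10 genes in the 2 comparisons of sick mice under TMM scaling, under library totals alone, and without 1 mouse (wild-type mouse 2 on the left, sick mouse 3 on the right); filled points have an adjusted p below 0.05. Under library totals every point moves right, Gsr against wild-type mice to 0.04 and Gpx4 against healthy knock-in mice to 0.05, while Ggt1, Gclm, Gss and Gpx3 stay lower and filled.

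Healthy knock-in mice carry the same Gne change as sick mice, and none of the 10 genes was told apart from wild-type mice in them. Adjusted p-values ran between 0.912 and 0.965. The widest differences were -0.38 ± 0.31 for Gss and -0.35 ± 0.30 for Gpx4, both in genes where wild-type mouse 2 was the highest mouse. Gss averaged 341 ± 34.6 CPM in healthy knock-in mice (n = 4), against 444 ± 168 CPM in all 4 wild-type mice and 360 ± 9.40 CPM in the 3 wild-type mice other than mouse 2. Gpx4 averaged 546 ± 48.5 CPM in healthy knock-in mice (n = 4), against 695 ± 317 CPM in all 4 wild-type mice and 537 ± 23.3 CPM in those 3. Gclm and Gsr had the smallest SE here, 0.14 and 0.13, with differences of -0.08 and 0.04. For Hmox1, at 0.21 ± 0.43, the data leave a wide range.

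Within groups the same mice were often high or low across the 10 genes. Sick mouse 1 had the lowest level of its group in 9 of the 10 genes, all but Hmox1, where it was the highest. Sick mouse 3 was the highest of its group in 7 genes (Ggt1, Gss, Gsr, Gpx1, Gpx3, Gpx4 and Nqo1), and wild-type mouse 2 was the highest of its group in those same 7. Healthy mouse 2 was the lowest of its group in 6. Together the 10 genes took 0.854% to 1.61% of all counts in sick libraries, 1.92% to 2.47% in healthy and 1.92% to 2.67% in wild-type libraries.

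Per kilobase of exon, mean levels ordered the genes the same way at the top in each group. Gpx3 led with 4142 CPM per kb in sick, 11077 in healthy and 10359 in wild-type mice, and Gpx1 followed with 529, 1087 and 1225 CPM per kb in the same order of groups. Below them the order differed: Gpx4 stood above Ggt1 in sick mice, at 222 and 86.5 CPM per kb, whereas in wild-type mice Ggt1 stood above Gpx4, at 512 and 403 CPM per kb. Nqo1 was the lowest of the 10 in wild-type mice, at 23.8 CPM per kb, and at 42.5 CPM per kb in sick mice it stood above Gss (20.4), Gclm (27.3), Gclc (37.3) and Hmox1 (37.4), by less than 1 SD for the last 2 of these.

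Ratios of per-kilobase levels within a library do not depend on the scaling between libraries. Nqo1 to Gclm was 1.11 to 1.97 in sick mice, 0.287 to 0.452 in healthy and 0.328 to 0.483 in wild-type mice, so the sick group did not overlap the others. Ggt1 to Gclm was 2.15 to 4.14 in sick mice, 7.56 to 9.23 in healthy and 6.56 to 12.1 in wild-type mice, again apart in the sick group. The ratio of the ligase's subunits, Gclc to Gclm, overlapped in all groups, at 1.07 to 2.05 in sick, 0.764 to 2.13 in healthy and 0.965 to 1.47 in wild-type mice. Gpx3 to Gpx1 was 7.62 to 8.48 in sick mice, below the 9.38 to 11.01 of healthy mice and within the 6.54 to 10.02 of wild-type mice. These are 4 of 7 ratios computed, and they were described and not tested.

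The rest of the pathway was followed through 10 lists of genes, counted in sick against wild-type mice with p-values adjusted over all genes tested. In that comparison 25.0% of all genes were lower and 25.9% were higher. With library totals alone 1605 of the 15589 genes were lower and 8420 were higher, with a median log2 fold change of 0.61. Of 19 other genes of glutathione synthesis, breakdown and amino acid supply, 12 were lower and 3 were higher, with a median log2 fold change of -1.41. Cbs, which feeds cysteine synthesis, averaged 52.9 ± 16.0 CPM in sick mice, against 402 ± 88.6 CPM in wild-type mice (-2.93 ± 0.22, adjusted p = 1.83e-06). Cndp2, a dipeptidase that can split cysteinylglycine, averaged 320.1 ± 117 and 2393 ± 1016 CPM in sick and wild-type mice (-2.90 ± 0.33, adjusted p = 1.99e-05). Ggct and Anpep, both enzymes of peptide breakdown, fell by 2.62 and 2.25. Slc7a11, the cystine carrier subunit, went the other way at a low level, 2.93 ± 0.785 CPM in sick mice, against 0.756 ± 0.241 CPM in wild-type mice (1.96 ± 0.31, adjusted p = 0.000209). Against healthy knock-in mice 13 of these 19 were lower and 2 were higher.

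Of 14 tested genes for other peroxidases, glutaredoxins, glyoxalases and related transferases, 8 were lower and 4 were higher (median -0.64, and -0.05 with library totals alone, where 4 were lower and 4 higher). Gpx6 averaged 1.27 ± 0.320 CPM in sick mice, against 15.5 ± 2.43 CPM in wild-type mice (-3.62 ± 0.29, adjusted p = 2.82e-06). The higher genes included Mgst1, a membrane-bound glutathione transferase, at 153 ± 36.5 CPM in sick mice, against 24.5 ± 6.52 CPM in wild-type mice (2.64 ± 0.22, adjusted p = 3.19e-06), Hpgds (2.60), a prostaglandin synthase that uses glutathione, and Gpx7 (2.07), a peroxidase of the endoplasmic reticulum. All 5 genes of the superoxide dismutases and catalase list were lower, with a median of -1.63. Sod2, the mitochondrial dismutase, averaged 106 ± 28.4 CPM in sick mice, against 381.5 ± 20.9 CPM in wild-type mice (-1.84 ± 0.17, adjusted p = 5.78e-06). Cat, the peroxisomal catalase, averaged 379 ± 78.7 CPM in sick mice, against 1176 ± 83.3 CPM in wild-type mice (-1.63 ± 0.17, adjusted p = 1.03e-05). Sod1 (-1.76), its copper chaperone Ccs (-1.54) and Sod3 (-1.26), the extracellular form, were also lower, and the count of 5 held with library totals alone, without wild-type mouse 2 and without sick mouse 3.

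Of 19 thioredoxin and peroxiredoxin genes 9 were lower and 4 were higher, with a median of -0.30. With library totals alone 5 were lower and 8 higher, with a median of 0.28 beside 0.61 over all genes tested. Prdx5 averaged 375 ± 175 CPM in sick mice, against 1645 ± 679 CPM in wild-type mice (-2.13 ± 0.33, adjusted p = 0.000191). Methionine sulfoxide reductases split, with Msra (-1.47) and Msrb2 (-1.41) lower and Msrb3 (1.63) higher. Of 10 genes of NADPH supply, which Gsr draws on, 6 were lower and 2 were higher (median -0.87; 3 and 3 with library totals alone). Me1 (-2.27), Nadk2 (-1.53), Nnt (-1.48) and Idh2 (-1.14) were among the lower genes, and G6pdx, the entry enzyme of the pentose phosphate pathway, averaged 54.9 ± 7.93 CPM in sick mice, against 35.2 ± 5.22 CPM in wild-type mice (0.64 ± 0.15, adjusted p = 0.00357). Idh2 did not pass with library totals alone, at -0.56 (adjusted p = 0.0575).

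Of 24 regulators and other known targets of NRF2, 10 were higher and 6 were lower, with a median of 0.37 beside 0.02 over all genes. With library totals alone 17 were higher and 2 lower, with a median of 0.98 beside 0.61 over all genes. Nfe2l2, which encodes NRF2, averaged 130.1 ± 13.2 CPM in sick mice, 82.2 ± 5.26 CPM in healthy mice and 86.9 ± 8.93 CPM in wild-type mice. It was higher in sick than in wild-type mice by 0.58 ± 0.12 (adjusted p = 0.00112) and higher than in healthy knock-in mice by 0.66 (adjusted p = 0.000549). Keap1, its repressor, averaged 46.0 ± 4.39 CPM in sick mice, against 48.7 ± 2.47 CPM in wild-type mice (-0.08 ± 0.10, adjusted p = 0.518), a sign that turned to 0.51 with library totals alone (adjusted p = 0.00142). Bach1, a repressor of Hmox1, was at 0.36 ± 0.29 (adjusted p = 0.325), and was higher with library totals alone, at 0.97 (adjusted p = 0.0114). Among the targets, Cbr3 averaged 9.69 ± 2.57 CPM in sick mice, against 1.11 ± 0.294 CPM in wild-type mice (3.12 ± 0.33, adjusted p = 1.18e-05), and Srxn1, which repairs peroxiredoxins, 95.2 ± 26.1 and 51.6 ± 5.80 CPM in the same order (0.88 ± 0.23, adjusted p = 0.00667). Srxn1 did not pass against healthy knock-in mice (0.44, adjusted p = 0.138). Txnrd1 was at 0.02 ± 0.15 (adjusted p = 0.915) against wild-type mice, and was higher with library totals alone, at 0.61 (adjusted p = 0.00206). The target Abcc4 was higher (1.63), and the target Me1 was lower. Known targets thus lay on both sides, among the 10 genes (Nqo1 higher, Gclm lower, and Gclc and Gsr lower except with library totals alone) as among the others.

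Of 19 genes of selenium use 13 were lower and 2 were higher (median -1.0). With library totals alone 9 were lower and 2 higher, with a median of -0.41 beside 0.61 over all genes. Without wild-type mouse 2, 11 were lower and 3 higher. Lrp2, the megalin receptor that takes up selenoprotein P in the proximal tubule, averaged 458 ± 84.1 CPM in sick mice, against 3121 ± 1122 CPM in wild-type mice (-2.77 ± 0.28, adjusted p = 9.83e-06). Selenbp1 (-1.81) and the selenoprotein Msrb1 (-1.77) were lower, and Selenon (1.85) was higher. Counting all 24 genes annotated with a selenocysteine codon in GENCODE M21, which include Gpx1, Gpx3 and Gpx4, 22 were tested, of which 11 were lower and 5 were higher in sick than in wild-type mice, with a median of -0.46. Annotated selenoprotein genes therefore did not all move as the 3 peroxidases printed above did.

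Of 10 tested genes of heme breakdown and iron storage 6 were lower and 3 were higher (median -0.46). With library totals alone 1 was lower and 3 higher, with a median of 0.13 beside 0.61 over all genes. Without wild-type mouse 2, 4 were lower and 2 higher. Hp, the hemoglobin scavenger haptoglobin, averaged 136 ± 201 CPM in sick mice, against 3.28 ± 2.56 CPM in wild-type mice (5.35 ± 1.01, adjusted p = 0.000799), and the sick mice spanned 18.0 to 437 CPM. Leaving out single mice moved Hp between 3.41 and 6.01. Cd163 (3.34), the macrophage receptor for haptoglobin-bound hemoglobin, was higher, and Tfrc (-2.53) and Fth1 (-1.08) were lower, Fth1 not with library totals alone (-0.50, adjusted p = 0.0832). Of 11 lipid peroxidation genes 5 were lower and 3 higher (median -0.43). With library totals alone 1 was lower and 4 higher, with a median of 0.15 beside the same 0.61 over all genes. Acsl4, which loads polyunsaturated fatty acids into lipids that Gpx4 protects, averaged 143 ± 13.3 CPM in sick mice, against 48.3 ± 7.65 CPM in wild-type mice (1.56 ± 0.21, adjusted p = 7.66e-05). Fdx1 (-1.72) was lower and Gch1 (1.07) higher. Alox5 was at 0.92 ± 0.35 (adjusted p = 0.0448), a call lost in 8 of 15 alternatives.

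Of 13 tested oxidant source genes 7 were higher and 4 were lower (median 1.61). The higher genes included subunits of the phagocyte NADPH oxidase: Ncf1 (3.52), Ncf4 (2.96) and Cybb, at 55.7 ± 28.6 CPM in sick mice, against 9.82 ± 4.08 CPM in wild-type mice (2.51 ± 0.36, adjusted p = 0.000119). Aox1 (2.31), an aldehyde oxidase, was also higher. The oxidase subunits did not all rise. Cyba, another subunit of NADPH oxidases, was lower, averaging 152 CPM in sick mice, against 353 CPM in wild-type mice (-1.22). It was lower against healthy knock-in mice too. Nox4, the oxidase of kidney tubule cells, averaged 127 ± 26.4 CPM in sick mice, against 428.5 ± 150 CPM in wild-type mice (-1.76 ± 0.29, adjusted p = 0.000278). In healthy knock-in against wild-type mice none of the 137 tested genes of these 10 lists passed in edgeR, and 6 had an unadjusted p below 0.05. In DESeq2 1 of them passed, Gpx6, named here after its value was seen, at 7.54 ± 2.68 CPM in healthy knock-in mice, against 15.5 ± 2.43 CPM in wild-type mice (log2 fold change -1.04, adjusted p = 0.0275 in DESeq2 and 0.308 in edgeR).

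**Figure D4:**
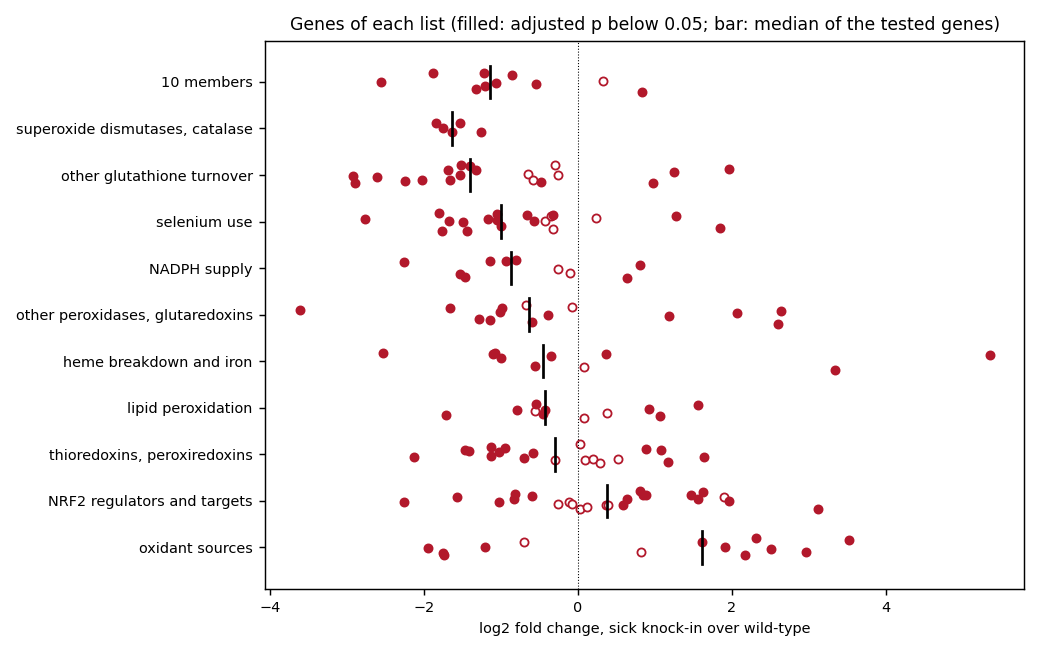
Log2 fold changes in sick over wild-type mice (horizontal axis) of the 10 genes and of the tested genes of 10 lists; each point is a gene, filled where its adjusted p was below 0.05, and the bar is the list's median. The superoxide dismutase and catalase genes lie left of 0 with a median of -1.63 and the oxidant source genes have the rightmost median, 1.61. With library totals alone the medians of the thioredoxin, heme and lipid peroxidation lists turn to positive values, below the 0.61 of all genes.

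Cell type markers moved with these results. All 20 proximal tubule markers were lower in sick than in wild-type mice (median -2.45), and their summed level was 5549 to 11874 CPM in sick, 35037 to 45390 CPM in healthy mice and 36323 to 43780 CPM in wild-type mice. With library totals alone 17 of the 20 were called lower, and without wild-type mouse 2, 19 were. Against healthy knock-in mice 19 were called lower. None was called higher in these settings. All 12 tubular injury markers were higher, with sums of 10222 to 17088 CPM in sick, 932 to 1374 CPM in healthy and 796 to 1220.4 CPM in wild-type mice. Of 13 tested macrophage markers 12 were higher and none were lower, and all 9 fibroblast and matrix markers were higher, with sums of 3314 to 6820.4 CPM in sick, 398 to 1051 CPM in healthy and 470.2 to 643 CPM in wild-type mice. Of 10 markers each, 4 were lower and 1 was higher for the distal nephron, and 1 was lower and 2 were higher for the glomerulus. Cybb, Ncf1, Ncf4 and Cd163, named above, are also genes that macrophages express. In a whole kidney, fewer cells of a type and less RNA per cell cannot be told apart, and the part of these markers in the changes of the 10 genes was not tested. Within the sick group, mouse 1 had the lowest proximal tubule sum (5549 CPM) and mouse 3 the highest (11874 CPM), the same mice that were lowest and highest in most of the 10 genes. In the healthy group mouse 2 had the lowest proximal tubule sum (35037 CPM) and was lowest in 6 of the 10 genes. Healthy mouse 4 had the highest sum of that group (45390 CPM) and was highest in 4 genes. In the wild-type group mouse 2 had the lowest proximal tubule sum (36323 CPM) and was highest in 7 of the 10 genes.

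**Figure D5:**
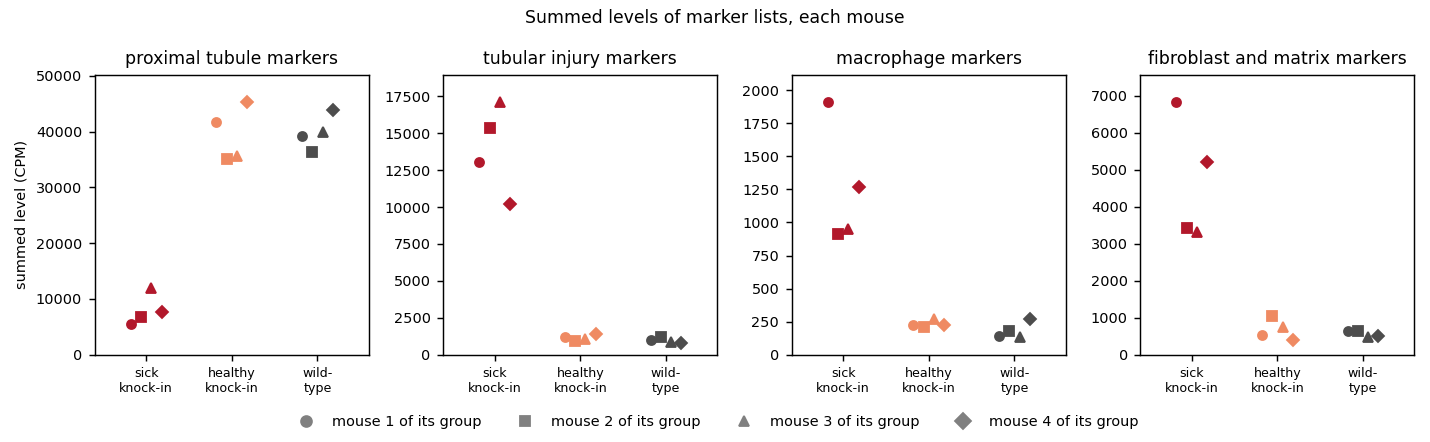
Summed levels in CPM (vertical axes, linear and starting at 0) of 4 marker lists in each kidney, 1 marker per mouse. Proximal tubule sums are 5549 to 11874 CPM in sick mice and 35037 to 45390 CPM in the others, while injury, macrophage and fibroblast sums are highest in the 4 sick mice.

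The tested genes most like each of the 10 were found by the root mean square difference of centred log2 CPM over the 12 libraries, among 13801 genes with regular names. Nearest to Gclm were Wdr78 (0.07) and Rnf11 (0.10), and nearest to Gsr were Tmem38b and Pnpla6, both at 0.07. Mrpl51 (0.08) and Tmem147 (0.10) were nearest to Gpx4, Fahd1 (0.12) and Glod5 (0.15) to Gss, and Slc22a18 (0.12) and Coasy (0.20) to Ggt1. Nearest to Gpx3 were Sfxn1 (0.12) and Msra (0.13), and nearest to Gpx1 were Cyba (0.15), a subunit of NADPH oxidases, and Timm17a (0.17). Nt5e (0.24) and Osgin1 (0.31) were nearest to Gclc, and Klhl6 (0.33) and B4galt1 (0.37) to Hmox1. Mal and Il17rc were nearest to Nqo1, both at 0.21. The measure is smaller for genes that vary less, so it ranks genes for 1 of the 10 and not between them.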

How the data were processed

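The 10 genes and all gene and marker lists were chosen with earlier results of these data known. Per the labels' protocols, RNA came from a miRvana extraction followed by DNase and a Trueseq library kit; the sources used here do not say whether strand was kept. The submitters' processing notes name Trim Galore 0.3.7, TopHat2 2.0.11, Cufflinks, DESeq2 1.12.4 and GRCm38. The program that counted reads and its annotation release were not given in the sources used. Raw counts per gene in 12 columns, and the authors' log2 fold changes with SE, test statistics and adjusted p-values, make up the deposited table, per the file headers. Another 12 per-sample columns of normalized values were not used.

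Counts were tested in edgeR 4.0.16 (R 4.3.3): filterByExpr by group, TMM, a quasi-likelihood fit with 1 mean per group over all 12 libraries, and Benjamini-Hochberg adjustment over 15589 genes at 0.05. A common biological coefficient of variation of 0.270 was estimated. SEs were derived from F. CPM used effective library sizes; levels per kb used the exon union of GENCODE M21, which also gave coordinates. Levels are means ± SD over 4 mice. The p-values set the difference between 2 group means against a spread between mice that was estimated over all 12 libraries. The number of mice limits the precision. In a simulation of the sick and wild-type comparison (14787 genes), 41 of 95 genes changed by 1 (log2) and 81 of 90 changed by 2 were recovered, with 6 false calls. Its changes were few and balanced in direction, whereas 50.9% of genes tested were called in the data. It therefore does not measure recovery at that share of calls, nor the effect of the scaling. Of the pathway lists, up to 4 called genes each were named, by size of change in sick against wild-type mice, at 1 CPM or more in the higher group and without overlap; 12 regulators and enzymes were named always. Cyba and Osgin1 were named as genes most like a member, and Cyba also beside the other oxidase subunits. Of 237 list names 235 were found in the table. Alternatives were DESeq2 size factors, library totals alone, no filter, a stricter filter of 1 CPM in 4 libraries, the 8 libraries of a comparison, DESeq2 1.42.0, a block for the replicate number, and each library left out.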

Additional observations from a re-analysis of the deposited data

Results flagged for a closer look

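In 4 of the 30 groups of 4 values (10 genes in 3 groups), 1 mouse lay farther from the nearest of the others than Dixon's critical value for groups of 4 allows; chance gives about 1 in 20. All were in wild-type mice. Gpx1 was 2739 CPM in wild-type mouse 2 and 1423 to 1461 CPM in the other 3. Gss was 695 CPM in wild-type mouse 2 and 349 to 368 CPM in the others. Gpx4 was 1169 CPM in wild-type mouse 2 and 509.8 to 552 CPM in the others. Gclm was 468 CPM in wild-type mouse 4 and 369 to 383 CPM in the others.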

How the results depend on the processing

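With library totals alone 5 of the 10 genes were called in each comparison of sick mice, in place of 9 and 8. Of all genes 10025 and 10006 were then called, in place of 7933 and 7232. In that setting Gsr was 0.041 against wild-type, Gpx4 0.053 against healthy knock-in mice and Keap1 0.51 against wild-type mice. DESeq2 called 87 genes in healthy knock-in against wild-type mice, in place of 49. The other alternatives gave 8 or 9 of the 10 genes in both comparisons of sick mice and none in healthy knock-in against wild-type mice. Leaving out single libraries gave 8 to 9 genes against wild-type and 8 to 9 against healthy knock-in mice. It moved Txnrd1 against wild-type mice between -0.069 and 0.12, and Hmox1 against healthy knock-in mice between -0.10 and 0.59. In healthy knock-in against wild-type mice it moved Ggt1 between -0.17 and 0.15, Gclc between -0.17 and 0.31, Gclm between -0.12 and 0.0053, Gsr between -0.0015 and 0.12, Gpx1 between -0.32 and 0.12, Gpx4 between -0.47 and 0.024, Hmox1 between -0.27 and 0.70 and Nqo1 between -0.24 and 0.041. None of these values without 1 library passed the test. The cause of these shifts was not tested.

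Groups share replicate numbers in the labels, but nothing says that a number marks a shared litter or day, and the deviations of 12 same-numbered pairs correlated between -0.26 and 0.24, over 0.1 in 4. Pairs with different numbers correlated between -0.32 and 0.50, the highest being sick mouse 3 with wild-type mouse 2. The cause of that shared deviation was not tested. With the replicate number as a block, 9, 8 and 0 of the 10 genes and 7480, 6809 and 44 of all genes were called, in place of 7933, 7232 and 49. Alox5 did not pass with the block (0.80, adjusted p = 0.0677).

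List counts with library totals alone, without wild-type mouse 2 and without sick mouse 3 were added after seeing the data.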
